A study of Mus musculus with 6 samples.

Results

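Genes of bone formation and mineralization were examined in mouse dermal fibroblasts in which β-catenin had been stabilized. RNA of the pyrophosphate gene Enpp1 was 2.87-fold lower in these cells, that of the scarce Alpl was 4.90-fold lower in a test it entered through its control level alone, that of Runx1 and Runx2 was higher by less than 2-fold, and that of Spp1, the most abundant gene of the set, differed more between the treated cultures than between the groups. The set was chosen by name with earlier results of these data known, as were the gene lists used below. It held 10 genes of the 41126 in the all-gene table: the transcription factors Runx1, Runx2, Runx3 and Sp7, the enzymes and transporter of pyrophosphate balance Alpl, Enpp1 and Ank, the bone matrix proteins Spp1 and Ibsp, and the endopeptidase Phex. Each was matched to its Ensembl identifier through the GENCODE M21 annotation, and all 10 had a value in every library. Gene expression was measured by RNA-seq, which counts the sequenced cDNA fragments of each gene, in 6 cultures, 3 control and 3 gain of function (GOF). All were dermal fibroblasts of postnatal day 4 mice of strain CD1, C57Bl6. The labels give the controls as infected with an adenovirus carrying GFP (AdGFP; genotype +/+) and the GOF cultures with one carrying Cre (AdCre; Ctnnb1 delta ex3/+), Cre being the recombinase that removes exon 3 of β-catenin and so leaves a protein that escapes degradation. The paper describes the same floxed transgene in the controls, and the treatment field of the labels names AdCre at 366 to 500 MOI for all cultures, so the genotype and virus of the controls are described in more than one way. Virus and β-catenin both differ between the groups, and the part of each cannot be told apart. The cells were primary cultures from trunk skin, infected in the dish and passaged, so they had left the tissue before β-catenin was changed. The 6 cultures came from 4 animals: Control replicate 2 and GOF replicate 0 shared one, Control replicate 0 and GOF replicate 2 shared another, and Control replicate 1 and GOF replicate 1 came from an animal each. The shared animals thus each gave a culture labelled +/+ and one labelled Ctnnb1 delta ex3/+, which cannot both be the genotype of the animal.

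Runx proteins bind DNA together with the shared subunit Cbfb. Runx2 starts the osteoblast programme, Sp7 acts after it, and Runx1 and Runx3 act mainly in blood, cartilage, neurons and epithelia. Mineral forms where phosphate is high and pyrophosphate, which blocks crystal growth, is low. Enpp1 makes pyrophosphate outside the cell, Ank (the mouse progressive ankylosis protein) lets pyrophosphate or its precursor ATP out of the cell, and Alpl, the tissue-nonspecific alkaline phosphatase, splits pyrophosphate into phosphate. Spp1 (osteopontin) and Ibsp (bone sialoprotein) are acidic matrix phosphoproteins, and Phex is the endopeptidase of osteoblasts and osteocytes whose loss causes X-linked hypophosphatemia. Outside bone, Enpp1 and Ank are known for keeping soft tissue free of mineral, since loss of either leads to ectopic mineral.

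Stabilized β-catenin acts through TCF and LEF factors, and the Runx factors read their own core site, so the sequences at the start sites of the set were searched for both cores. RefSeq (GRCm38.p6) windows from 250 bases before to 50 bases after a gene start were available for 9 of the 10 genes, in 13 windows, with Sp7 the gene without one. The distal starts of the 3 Runx genes each held a pair of RUNX cores in tandem. The stretches of 30 bases around the pairs are given in the direction of transcription, with each core (ACCACA, which is TGTGGT on the other strand) in capitals.

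Runx1: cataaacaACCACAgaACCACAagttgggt

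Runx2: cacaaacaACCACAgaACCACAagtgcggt

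Runx3: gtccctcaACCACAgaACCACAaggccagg

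The Runx1 stretch lies on the minus strand at chr16:92826025-92826054, the Runx2 stretch on the minus strand at chr17:44814583-44814612, and the Runx3 stretch on the plus strand at chr4:135120503-135120532. Counted with the first transcribed base as 0, the first core of the pair began at 28 in Runx1, at 23 in Runx2 and at -134 in Runx3, so it was downstream of the start in Runx1 and Runx2 and upstream of it in Runx3. Runx1 and Runx2 shared 27 of the 30 bases, Runx1 and Runx3 shared 19, and Runx2 and Runx3 shared 21, with a run of 18 bases in common to all 3. The stretches were picked and aligned by the pair of cores, so the bases of both cores match in every comparison by construction. The tandem ACCACANNACCACA, which was chosen after the matches had been seen, was found on either strand in 7 of 32851 windows of the same length (0.0213%). Besides the Runx genes these were the windows of Gm12236, Gm15462, Olfr24 and Gm16225, the last of which overlaps the Runx3 window and holds the same stretch. A single RUNX core (TGTGGT on either strand, tandem copies included) was in 16.8% of all windows and in 5 of the 13 windows of the set.

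The TCF/LEF core CTTTGA, searched on both strands, was in 16.0% of all windows and in 2 of the 13, those of Runx2 and Enpp1. The 250 bases before the start of each are shown because RNA of these genes moved in opposite directions, with TCF/LEF cores (CTTTGA or TCAAAG) and the RUNX core (ACCACA) in capitals.

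Runx2: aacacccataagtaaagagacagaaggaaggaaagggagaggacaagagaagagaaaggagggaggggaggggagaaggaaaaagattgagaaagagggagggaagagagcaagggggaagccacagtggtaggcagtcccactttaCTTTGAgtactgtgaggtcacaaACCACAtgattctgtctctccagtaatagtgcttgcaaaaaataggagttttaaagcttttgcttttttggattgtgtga

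Enpp1: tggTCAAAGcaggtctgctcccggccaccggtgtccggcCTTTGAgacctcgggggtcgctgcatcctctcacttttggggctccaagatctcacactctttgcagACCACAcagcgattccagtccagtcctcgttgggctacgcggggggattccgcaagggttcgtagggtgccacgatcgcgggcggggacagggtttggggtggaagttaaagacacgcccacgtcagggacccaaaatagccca

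The Runx2 bases are chr17:44814628-44814877 and the Enpp1 bases chr10:24712160-24712409, both on the minus strand. The TCF/LEF core began at -103 in Runx2, and Enpp1 held one at -247 and another at -211. The RUNX core upstream of the start began at -80 in Runx2 and at -144 in Enpp1. A match of these letters is a description of the sequence and not a binding site.

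Feedback targets of β-catenin separated the groups. Axin2, the feedback target of β-catenin, rose from 0.152 ± 0.0218 to 17.5 ± 2.66 FPKM (fragments per kilobase of transcript, scaled to library size, SD, n = 3 each), and Nkd2, another feedback inhibitor of Wnt signaling, had a log2 fold change of 4.66 (edgeR, adjusted p = 5.45e-05). Ctnnb1 over the whole gene was at 267 FPKM in control and 263 FPKM in GOF libraries, which does not read the excised exon. The all-gene table held 35980831 to 42834467 fragments per library. A count of 3 fragments, the most that a count of 0 allows, was 0.07 to 0.0834 CPM (fragments scaled to library size alone) here, for counting error only. Genes were tested on the fragments with edgeR's quasi-likelihood test, and a gene was called when its adjusted p was under 0.05 and its fold change over 2. Of 15462 genes tested, 12.3% were called, 6.69% higher and 5.64% lower in GOF. All 10 markers of dermal fibroblasts were tested, with a summed level of 3120 to 4000 FPKM in control and 2605 to 3259 FPKM in GOF libraries. Of 8 osteoblast markers only Bglap2 and Pth1r had enough fragments to be tested, Dmp1 and Sost were at 0 in all 6 libraries, and the summed level was 6.31 to 8.09 FPKM.

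Of the 10 genes, 6 passed the filter on low counts. Of these, edgeR called 0 higher and 2 lower (Alpl and Enpp1), beside 6.69% and 5.64% of all genes tested. DESeq2 gave the same counts. At an unadjusted p under 0.05, 2 of the 6 were higher and 2 lower, beside 17.6% and 17.3% of all genes tested (edgeR). With the adjusted p alone, 2 were higher (Runx1 and Runx2) and 2 lower, beside 11.1% and 10.2% of all genes tested. The libraries of the groups were fully separated in FPKM for 4 genes and in CPM for the same 4, all among the 6 that were tested. Of all genes tested, 39.5% and 40.6% were separated in this way. The median log2 fold change of the 6 was -0.07, beside -0.02 over all genes tested. Levels spanned a wide range, from Spp1 at a mean of 90.8 FPKM over all libraries, Ank at 17.0 FPKM and Runx1 at 9.78 FPKM to Phex, Sp7, Runx3 and Ibsp at 0.0439, 0.0227, 0.0179 and 0.0103 FPKM. In the control libraries the FPKM of Enpp1 overlapped that of Runx2, and that of Runx2 overlapped that of Alpl, so their order was within the spread. In the GOF libraries the ranges of Ank and Runx1 overlapped, and Enpp1 was below Runx2 in every library.

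**Figure D1:**
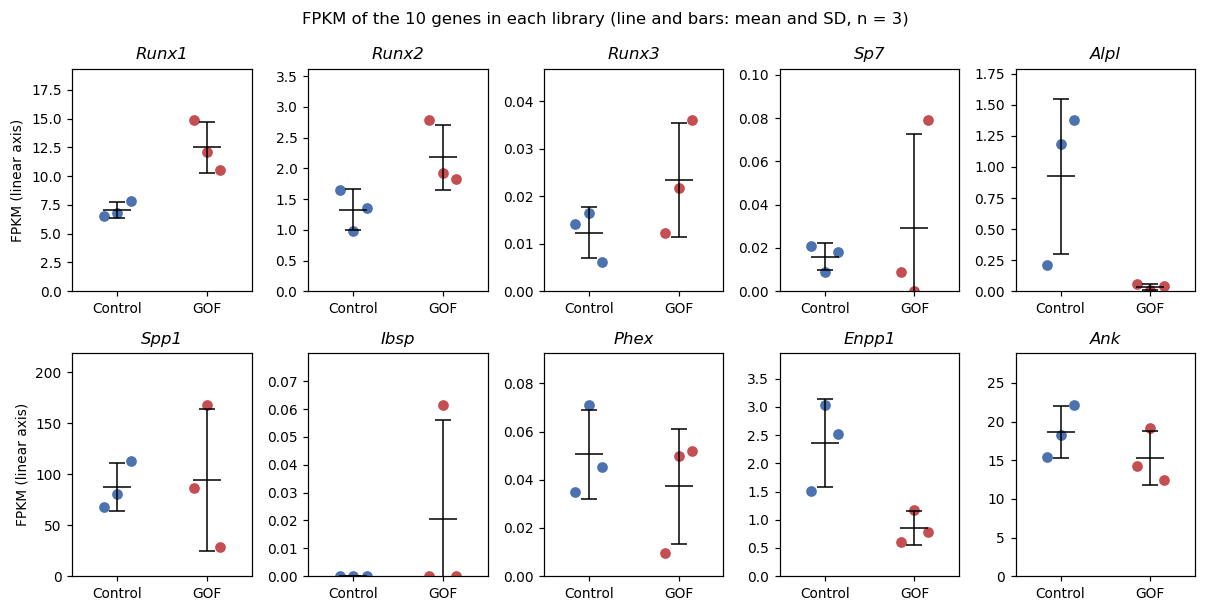
FPKM of each of the 10 genes on a linear axis from 0, with 1 point per library, control in blue and GOF in red, and the mean and SD (n = 3). For Runx1 and Runx2 all GOF points lie above the control points, for Enpp1 and Alpl all lie below, while the GOF libraries of Spp1 spread from 28.8 to 168 FPKM.

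Runx1 and Runx2, the Runx factors expressed in these cells, were both higher in GOF. Runx1, on chromosome 16 from 92601466 to 92826149 (mm10, minus strand), was at 6.51, 6.84 and 7.83 FPKM in Control replicates 0, 1 and 2 and at 14.9, 12.1 and 10.5 FPKM in GOF replicates 0, 1 and 2. The groups were fully separated (two-sided p = 0.1 by the exact permutation test, the lowest possible with 3 against 3 libraries). The means were 7.06 ± 0.687 and 12.5 ± 2.22 FPKM (SD, n = 3 each), and the log2 fold change was 0.80 (standard error, SE, 0.16, 95% interval 0.43 to 1.18, edgeR adjusted p = 0.0119). It rested on 1111 to 1496 fragments in control and 1946 to 2801 in GOF libraries. Without Control replicate 1 the adjusted p was 0.0598, and the log2 fold change stayed between 0.67 and 0.93 over the libraries left out in turn. These are bulk RNA levels, in which more cells of a type and more RNA per cell cannot be told apart.

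Runx2, on chromosome 17 from 44495987 to 44814797 (minus strand), was less abundant than Runx1 in every library. Its values were 1.65, 0.981 and 1.36 FPKM in Control replicates 0, 1 and 2 and 2.79, 1.93 and 1.82 FPKM in the GOF replicates. The groups did not overlap, although GOF replicate 2 at 1.82 FPKM was close to Control replicate 0 at 1.65 FPKM, a culture of the same animal. The log2 fold change was 0.80 (SE 0.23, 95% interval 0.28 to 1.32, edgeR adjusted p = 0.0417). A replicate block by animal gave a log2 fold change of 0.63 (edgeR, adjusted p = 0.134), and the adjusted p was 0.147 and 0.113 when Control replicate 1 or 2 was left out and 0.142 and 0.0999 when GOF replicate 0 or 1 was (edgeR).

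Runx3, on chromosome 4 from 135120652 to 135177990, had 2, 1 and 1 fragments in the control and 2, 3 and 5 in the GOF libraries. These were too few to pass the filter, and a difference was not detectable at this depth (exact permutation test on FPKM, two-sided p = 0.3, and without a filter a log2 fold change of 1.19 with edgeR adjusted p = 0.467). Summed over the 3 factors, Runx RNA was at 8.40 ± 0.706 FPKM in control and 14.7 ± 2.72 FPKM in GOF (SD, n = 3 each), without overlap (exact permutation test, two-sided p = 0.1). The make-up of that sum differed by less than the spread between libraries. Runx1 took 84.0% ± 3.93 of it in control and 85.1% ± 0.964 in GOF, and Runx2 took 15.8% ± 3.93 and 14.7% ± 1.003 (SD, n = 3 each, exact permutation p = 0.9 and 0.8). A share of one factor falls when another's rises, so these are not independent measures.

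Antisense transcripts lie inside the Runx genes. Runx2os1, on the opposite strand of Runx2, had 26, 15 and 14 fragments in the control and 24, 12 and 28 in the GOF libraries of the lncRNA table, a log2 fold change of 0.16 (SE 0.45, edgeR adjusted p = 0.865), while 9.36% of the lncRNAs tested were called. Runx2os2 had 1 to 13 fragments per library and Gm26626, opposite Runx1, a mean of 3.17. Runx2os3 and Gm16224, opposite Runx2 and Runx3, were at 0 in all libraries. The coding gene Supt3, which also overlaps Runx2 on the opposite strand, had a log2 fold change of 0.28 (edgeR, adjusted p = 0.330). The kit marked the strand, but whether the counting used it is not given in the sources used here, so fragments of these pairs may not be told apart.

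Sp7 (osterix), on chromosome 15 from 102356606 to 102367182, the factor that follows Runx2 in osteoblasts, was at the limit of detection. It had 2, 1 and 2 fragments in Control replicates 0, 1 and 2 and 1, 0 and 9 in the GOF replicates. The 9 fragments of GOF replicate 2 were the most in any library, and the levels of the groups overlapped (exact permutation test, two-sided p = 0.9). That library also held the most fragments of the osteocalcin genes Bglap and Bglap2, 15 and 39, against 4 to 8 and 4 to 21 in the controls. Other genes of the osteoblast went both ways. Dlx5 had its only fragments there, 2, and Bglap3 its most, 4. Pth1r and Ifitm5 were lowest in that library, at 3.34 and 0.230 FPKM. The summed osteoblast list stood at 7.62 FPKM there, within the control range of 7.10 to 8.09 FPKM. The part of these markers in the count was not tested.

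Other regulators of the osteoblast were read from a list of 14 genes, of which 11 were tested. Of these, 3 were called higher and 2 lower, beside 6.69% and 5.64% of all genes tested, with a median log2 fold change of 0.03. Msx2, a homeobox factor that is active in skull and limb bone, rose from 0.312 to 1.87 FPKM, a log2 fold change of 2.60 (edgeR, adjusted p = 0.00156). Twist1, which binds and restrains Runx2, had a log2 fold change of 1.04 (edgeR, adjusted p = 0.00252), and the Groucho corepressor Tle4 rose from 1.01 to 2.47 FPKM (log2 fold change 1.26, adjusted p = 0.00341, edgeR for both). The genes called lower, named after their values were seen, were the cartilage factor Sox9, from 1.77 to 0.364 FPKM (log2 fold change -2.30, adjusted p = 0.00416), and the zinc finger factor Zfp521, from 12.1 to 5.27 FPKM (log2 fold change -1.22, adjusted p = 0.0193, edgeR for both). Dlx3, Dlx5 and Dlx6, homeobox factors of the osteoblast programme, had at most 4 fragments over any group. The most abundant of the list were Atf4, at 211 and 152 FPKM with a log2 fold change of -0.50 (edgeR, adjusted p = 0.0448), and Twist2, with 0.64 (edgeR, adjusted p = 0.116). The number called was 3 with a replicate block by animal and 3 without GOF replicate 1. Zfp521 had an adjusted p of 0.0540 to 0.0694 without Control replicate 1 or 2 or GOF replicate 1 or 2 (edgeR). Twist1 fell under the fold threshold with library totals (log2 fold change 0.996), upper quartile (0.985) and the block by animal (0.965). Without GOF replicate 1 its log2 fold change was 0.92.

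Of 12 symbols listed for partners and corepressors of Runx proteins, 11 were found in the table, all but Tle5, and 10 were tested. Tle4 was called higher and Tle2 lower, beside 6.69% and 5.64% of all genes tested, and the median log2 fold change was 0.004. Cbfb, the DNA-binding partner, was at 53.4 and 43.1 FPKM, a log2 fold change of -0.30 (edgeR, adjusted p = 0.117). Tle2 had a log2 fold change of -1.31 (edgeR, adjusted p = 0.0118), yet its FPKM ranges overlapped. Tle1 had 0.88 (edgeR, adjusted p = 0.00728), which is under the fold threshold. The abundant members Aes and Wwtr1, a small Groucho protein and the coactivator Taz, had log2 fold changes of -0.09 and 0.12 (adjusted p = 0.646 and 0.488, edgeR). Cbfb and Tle1 were named after their values were seen.

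Of the pyrophosphate genes, Enpp1 and Alpl fell in GOF and Ank did not pass the threshold. Enpp1, on chromosome 10 from 24637914 to 24712159 (minus strand), was at 1.51, 3.04 and 2.52 FPKM in Control replicates 0, 1 and 2 and at 0.597, 1.17 and 0.791 FPKM in the GOF replicates. All GOF libraries were below all control libraries (two-sided p = 0.1, exact permutation test), and Control replicate 0 was the lowest of its group. Enpp1 fell from 2.35 ± 0.778 to 0.854 ± 0.293 FPKM (SD, n = 3 each), 2.87-fold, with a log2 fold change of -1.52 (SE 0.37, 95% interval -2.37 to -0.67, edgeR adjusted p = 0.0245). The adjusted p was 0.0834 and 0.0666 when Control replicate 1 or 2 was left out and 0.095 and 0.0645 when GOF replicate 0 or 2 was, and the log2 fold change stayed between -1.91 and -1.31. In the fit with a replicate block by animal the log2 fold change was -1.64 (edgeR, adjusted p = 0.00934).

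Ank, on chromosome 15 from 27466677 to 27594909, was the most abundant of these genes and did not pass the threshold. It was at 15.5, 18.3 and 22.2 FPKM in the control and 14.2, 19.2 and 12.4 FPKM in the GOF libraries. The groups overlapped, with GOF replicate 1 within the range of the controls. The log2 fold change was -0.29 (SE 0.19, 95% interval -0.73 to 0.16, edgeR adjusted p = 0.326), an interval that allows a modest fall and little rise. Otulin, which overlaps Ank on the opposite strand, had a log2 fold change of -0.03 (edgeR, adjusted p = 0.917), a sign that turned in 4 alternatives.

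Alpl, on chromosome 4 from 137741733 to 137796384 (minus strand), was scarce in both groups and scarcer in GOF. It had 18, 20 and 20 fragments in Control replicates 0, 1 and 2 and 6, 1 and 5 in the GOF replicates. The control libraries were close to each other, at 0.493 to 0.526 CPM, and all GOF libraries were lower, at 0.0262 to 0.149 CPM. The log2 fold change was -2.29 (SE 0.50, 95% interval -3.46 to -1.12, edgeR adjusted p = 0.0172), 4.90-fold lower. The gene passed the filter on low counts through the control libraries alone, the group where it is high, and without a filter its log2 fold change was -2.30 (edgeR, adjusted p = 0.0174). In FPKM the groups were at 0.211 to 1.38 and 0.00977 to 0.0548, but these values cannot be read in the same way, since 18 fragments in Control replicate 0 were given 0.211 FPKM and 20 fragments in Control replicate 1 were given 1.19 FPKM. The FPKM per CPM of Alpl differed up to 7.19-fold between libraries, against 1.08-fold for Ank and 1.36-fold for Enpp1. The call was lost without Control replicate 1 (edgeR, adjusted p = 0.0585) and without Control replicate 2 (adjusted p = 0.0530, edgeR).

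**Figure D2:**
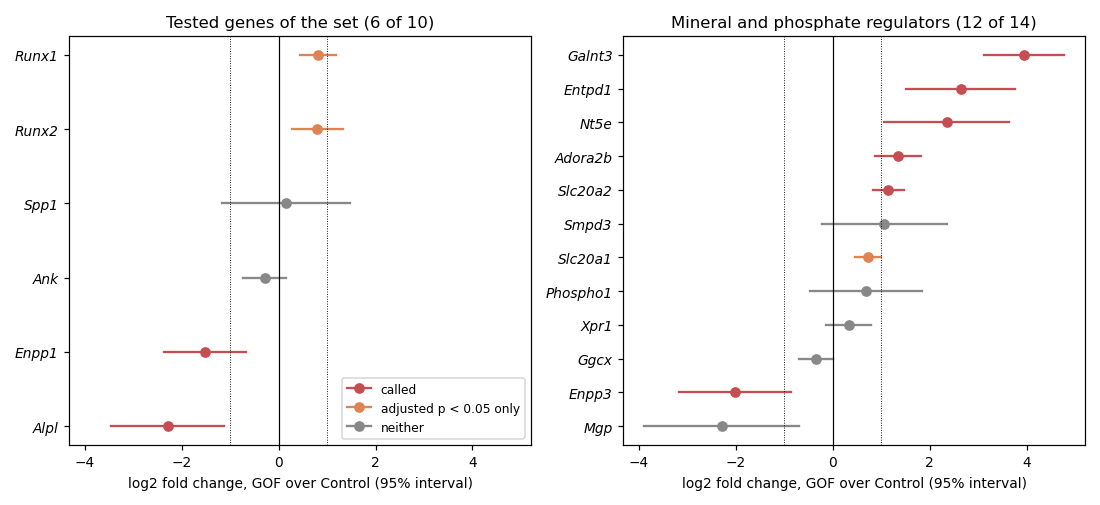
Log2 fold change of GOF over control with its 95% interval (edgeR) for the 6 tested genes of the set, left, and for the 12 tested genes of a list of mineral and phosphate regulators, right. Dotted lines mark a fold of 2, red points are called, orange points pass the adjusted p alone and grey points neither, with Enpp1 and Alpl called lower and Galnt3 at the top of the right panel.

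The RNA of the phosphatase relative to that of the pyrophosphate genes was compared per library as a log2 ratio of FPKM, with 0.1 added. Alpl over Ank was -4.46 ± 1.02 in control and -6.81 ± 0.565 in GOF, and Enpp1 over Ank was -2.97 ± 0.377 and -4.03 ± 0.292 (SD, n = 3 each). Neither ratio overlapped between groups (exact permutation test, two-sided p = 0.1 for both). Alpl over Enpp1 was -1.49 ± 0.791 and -2.78 ± 0.696, and overlapped (exact permutation test, n = 3 each, two-sided p = 0.2). On CPM, chosen after the FPKM of Alpl had been seen, the difference in Alpl over Enpp1 was -0.16 rather than -1.28, with Alpl over Ank at -1.36 and Enpp1 over Ank at -1.20. Both genes were lower against Ank on either scale, which restates the falls of Alpl and Enpp1 and is not separate support. The FPKM of Alpl in GOF, 0.00977 to 0.0548, was below the 0.1 added, so its FPKM ratios depended on the added value. The Alpl over Enpp1 ratio differed by less than its spread on CPM.

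Other regulators of mineral and phosphate were read from a list of 14 genes. Of these 12 were tested, and 5 were called higher and 1 lower, beside 6.69% and 5.64% of all genes tested. Their median log2 fold change was 0.90, beside -0.02 over all genes tested. The list was chosen with earlier results of these data known, so its counts and median describe the list and are not independent support. Galnt3, the glycosyltransferase that protects the phosphate hormone Fgf23 from cleavage, rose from 0.0927 to 1.245 FPKM (log2 fold change 3.95, edgeR adjusted p = 5.56e-04) and passed the filter through the GOF libraries alone. Fgf23 itself had 5 fragments over the controls and 2 over the GOF libraries. The phosphate importer Slc20a2 (Pit2), whose loss leads to mineral in brain vessels, rose from 18.1 to 40.8 FPKM with an adjusted p of 0.00171 (edgeR). It was at 16.4, 17.7 and 20.3 FPKM in the control and 47.4, 36.0 and 39.1 FPKM in the GOF libraries, so each GOF library was well above each control. Its relative Slc20a1 (Pit1) went from 20.5 to 32.3 FPKM, a log2 fold change of 0.73 that passed the adjusted p (0.00532, edgeR) but not the fold threshold.

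Genes that make or sense adenosine outside the cell were in the same list, among them Entpd1, which uses ATP, the substrate of Enpp1. The adenosine receptor Adora2b rose from 8.12 ± 0.683 to 20.9 ± 5.14 FPKM (SD, n = 3 each, log2 fold change 1.34, edgeR adjusted p = 0.00407). Entpd1 (CD39), which takes ATP to AMP, rose from 0.257 to 1.52 FPKM (log2 fold change 2.64, adjusted p = 0.00883), and Nt5e (CD73), which turns AMP into adenosine, from 0.775 to 3.69 FPKM (log2 fold change 2.35, adjusted p = 0.0223, edgeR for both). Every GOF library was above every control library in FPKM for all 3 genes, as it was for 20.3% of all genes tested. For Nt5e the adjusted p was 0.0581 to 0.0784 without Control replicate 0 or 1 or GOF replicate 0 or 1 (edgeR), and blocking by animal gave a log2 fold change of 1.55. Enpp3, the paralogue of Enpp1, fell from 2.14 to 0.520 FPKM (log2 fold change -2.02, edgeR adjusted p = 0.0257), and its adjusted p was 0.0732 to 0.0939 without Control replicate 1 or 2 or GOF replicate 0. Entpd1, Nt5e, Enpp3, Slc20a1 and Fgf23 were named after their values were seen. Mgp, the matrix Gla protein that inhibits mineral in cartilage and arteries, was the most abundant of the list at 159 ± 43.2 FPKM in control and 33.5 ± 35.9 FPKM in GOF (SD, n = 3 each). The control libraries were at 114, 163 and 199.7 FPKM and the GOF libraries at 11.1, 74.9 and 14.7 FPKM, without overlap and with GOF replicate 1 the highest of its group. Its log2 fold change of -2.29 (SE 0.69, edgeR adjusted p = 0.0511) just missed the threshold, and a replicate block by animal gave -3.57 (edgeR, adjusted p = 5.28e-04). Without GOF replicate 1 it was -3.65 (edgeR, adjusted p = 0.00174).

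Spp1 and Ibsp both lie on chromosome 5, Ibsp from 104299171 to 104311469 and Spp1 from 104435118 to 104441050. They belong to a cluster of acidic phosphoprotein genes with Mepe, Dmp1 and Dspp. Only Spp1 of the 5 was expressed above a few fragments. Ibsp had 7 fragments in GOF replicate 1 and 0 in the other libraries, Mepe had 1 and Dspp 2 fragments in all 6, and Dmp1 had none. Spp1 was the most abundant gene of the set and the most variable of its abundant members. It was at 67.7, 80.6 and 113 FPKM in Control replicates 0, 1 and 2 and at 86.2, 168 and 28.8 FPKM in the GOF replicates. GOF replicate 1 was above all controls, replicate 2 below all of them and replicate 0 among them, so the groups overlapped. The GOF libraries differed by 6.60-fold in CPM and the controls by 1.63-fold. The log2 fold change was 0.15 (SE 0.57, 95% interval -1.16 to 1.47, edgeR adjusted p = 0.873), an interval that leaves a change of 2-fold in either direction undetected.

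The direction for Spp1 depended on the fit and on which libraries entered the group difference. A block by animal takes that difference only from animals with a culture in both groups. Control replicate 1 and GOF replicate 1, the latter the highest library for Spp1, therefore do not enter it. Within the animal that gave Control replicate 2 and GOF replicate 0 the log2 difference in CPM was -0.36, and within the animal that gave Control replicate 0 and GOF replicate 2 it was -1.33. Blocking by animal, which rests on these same cultures, gave a log2 fold change of -0.84 (edgeR, adjusted p = 0.0421). This passed the adjusted p but not the fold threshold. With the animal as an estimated correlation (limma-voom) it was -0.44, and its adjusted p = 0.491 did not pass. It was -0.62 without GOF replicate 1 and 0.60 without GOF replicate 2.

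Markers of macrophages and other leukocytes, cells in which Spp1 is also high, shared part of the pattern of Spp1 over the libraries. Their summed level, of which Lyz2 was the largest part, was 10.8, 21.03 and 19.9 FPKM in Control replicates 0, 1 and 2 and 15.2, 26.8 and 8.61 FPKM in the GOF replicates, highest and lowest in the same libraries as Spp1. Tyrobp was at 0.0583, 1.72 and 0.936 FPKM in the control and 0.943, 1.93 and 0.0493 FPKM in the GOF libraries. Of the 9 markers 6 were tested, and Csf1r alone was called, beside 12.3% of all genes tested. It went from 1.32 to 3.89 FPKM (log2 fold change 1.52, edgeR adjusted p = 0.00186). Lyz2, Tyrobp and Cd68 were highest in GOF replicate 1 and lowest in GOF replicate 2, as Spp1 was, but Ptprc (CD45) and Adgre1 (F4/80) were highest in Control replicate 1 and lowest in Control replicate 0, and Csf1r was lowest in Control replicate 1. Ptprc was at most 0.0862 FPKM and Cd3e at 0 in all libraries. Lum (lumican), a proteoglycan of fibroblasts, was also lowest in GOF replicate 2, at 11.3 FPKM against 62.5 and 134 FPKM in the other GOF libraries. The part of these cells in the level of Spp1 was not tested.

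**Figure D3:**
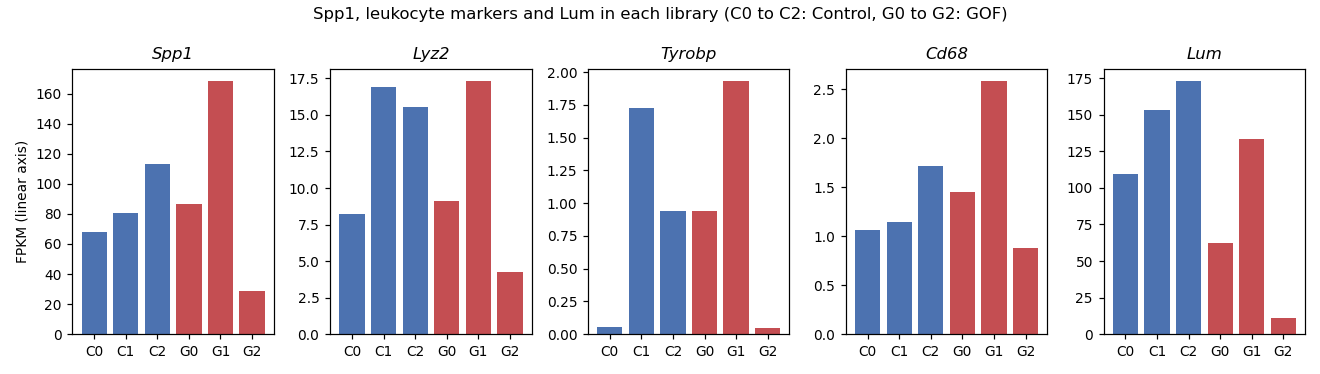
FPKM of Spp1, of the leukocyte markers Lyz2, Tyrobp and Cd68 and of the fibroblast proteoglycan Lum in each library, on linear axes from 0, with control replicates 0 to 2 in blue and GOF replicates 0 to 2 in red. In the GOF group all 5 genes are highest in replicate 1 and lowest in replicate 2.

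Phex, on chromosome X from 157162075 to 157415312 (minus strand), had 9, 9 and 11 fragments in the control and 3, 12 and 7 in the GOF libraries. These were too few to pass the filter, and the ranges overlapped (exact permutation test on FPKM, two-sided p = 0.6). Without a filter its log2 fold change was -0.43 (edgeR, adjusted p = 0.670). The Y-linked Ddx3y was at 0 in all libraries and Xist at 16.6 to 33.4 FPKM, so no library stood apart by Ddx3y or Xist for an X-linked gene. Of the other Y-linked genes listed, Eif2s3y was at 0, while Kdm5d had 12 to 24 and Uty 9 to 45 fragments per library.

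Bone matrix and osteocyte genes beyond the set were read from a list of 17. Of these 9 were tested, and 1 was called higher and 2 lower, beside 6.69% and 5.64% of all genes tested. Their median log2 fold change was 0.11. Tnfrsf11b, the osteoprotegerin that blocks osteoclast formation, rose from 16.2 to 56.0 FPKM (log2 fold change 1.79, adjusted p = 0.00447). The leucine-rich proteoglycans Ogn and Omd, osteoglycin and osteomodulin, were lower, Ogn from 104 to 13.04 FPKM (log2 fold change -3.02, adjusted p = 1.86e-04) and Omd from 2.46 to 0.786 FPKM (log2 fold change -1.74, adjusted p = 0.0333, edgeR for all 3). The call of Omd was lost without any 1 control library and without GOF replicate 0 (edgeR, adjusted p = 0.0647 to 0.120), and its log2 fold change was -2.38 without GOF replicate 2. Ogn was at 95 to 118 FPKM in control and 8.55 to 18.3 FPKM in GOF libraries. Sparc (osteonectin), the most abundant at 2357 and 2633 FPKM, had a log2 fold change of 0.13 (edgeR, adjusted p = 0.666), and Pdpn (podoplanin) had 0.31 (edgeR, adjusted p = 0.160). Several defining genes of bone cells were near 0: Bglap had 18 fragments over the controls and 22 over the GOF libraries, Ifitm5 had 36 and 23, and Sost had none. Others of the list were higher. Bglap2 had 40 and 55 fragments, and Pth1r was at 5.77 and 4.94 FPKM (log2 fold change -0.29, edgeR adjusted p = 0.4275).

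The 6 tested genes were also read within the pair of animals with a culture in both groups. Within the animal that gave Control replicate 2 and GOF replicate 0 and then within the other, the log2 difference in CPM was 0.92 and 0.57 for Runx1 and 1.04 and 0.21 for Runx2. It was -2.14 and -1.12 for Enpp1, -1.73 and -2.09 for Alpl and -0.60 and -0.36 for Ank. All 6 genes had the same sign in both animals, with Spp1 and Ank lower in each. For Runx1, Runx2, Alpl and Enpp1 the sign was fixed by the full separation of the groups in CPM, so it adds no support. A value per animal has no replicate, so no test was made.

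**Figure D4:**
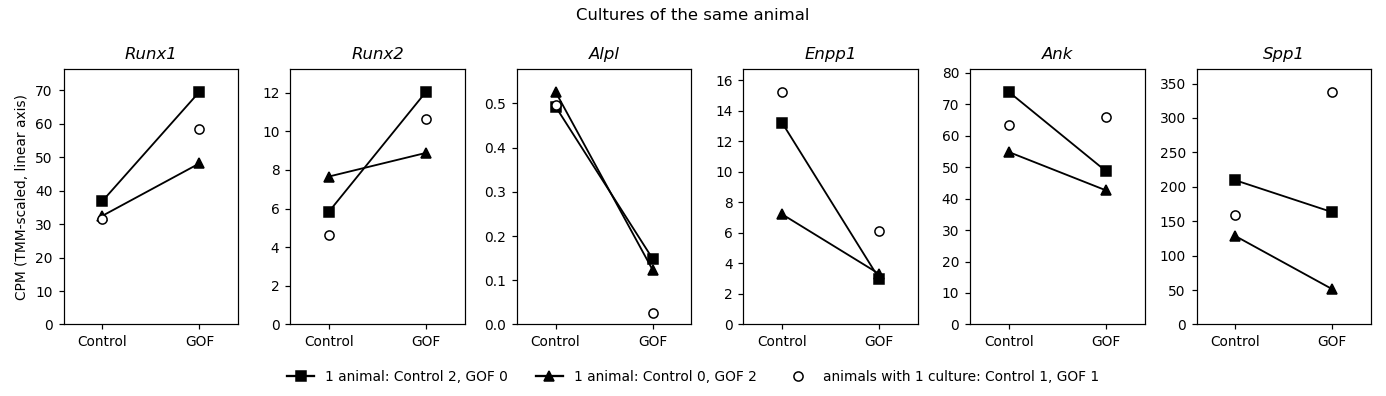
CPM of the 6 tested genes on linear axes from 0, with lines joining the cultures of 1 animal (squares, Control replicate 2 and GOF replicate 0, and triangles, Control replicate 0 and GOF replicate 2) and open circles for the animals with 1 culture. Both lines rise for Runx1 and Runx2 and fall for Alpl, Enpp1, Ank and Spp1, while the open circle of GOF replicate 1 is the highest GOF point for Spp1, Ank and Enpp1.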

How the data were processed

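Paired-end RNA-seq libraries of 3 control and 3 GOF cultures were analysed. Reads had been mapped by the authors to mm10 (TopHat), with Cuffdiff for the gene estimates. The estimated counts are the raw fragments per gene and library that the authors deposited without scaling, and the FPKM values were deposited by the authors after scaling for transcript length and library. A further 3 columns of per-library values in each of the tables were not used. Estimated counts were not whole in 4.95% (all genes) and 0.634% (lncRNAs) of values and were rounded, and 32 genes with a failed estimate were left out. Symbols came from GENCODE M21 on GRCm38 (97.9% and 96.4% matched).

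Each table was fitted whole in R 4.3.3 with edgeR 4.0.16 (filterByExpr, TMM, quasi-likelihood, Benjamini-Hochberg), 15462 and 1389 genes being tested. CPM are TMM-scaled. The script was tested on simulated data. Alternatives used DESeq2 1.42.0, limma 3.58.1 on log2(FPKM + 1) and log2(FPKM + 0.1), library totals, upper quartile, no filter, blocks by label number or animal, and each library left out. Sharing an animal comes from the labels: deviations from the group means correlated over genes at 0.413 and 0.496 for same-animal pairs, and at -0.442, 0.04 and -0.464 for same-number pairs. The remaining pairs lay between -0.143 and 0.154. Deviations cancel out within a group, so a high value for one pair lowers others and these correlations are not independent. The block by animal left 1 residual degree of freedom per gene. Control replicate 1 and GOF replicate 1 have no partner culture, so they do not enter the group difference of that fit.

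The genes of the set and all lists were chosen with earlier results of these data known. Named genes were the set, up to 3 called genes of smallest adjusted p and the 2 most abundant of each list, lncRNAs of at least 10 fragments on average at these loci, and markers of other cells.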

Additional observations from a re-analysis of the deposited data

How the results depend on the processing

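Across the alternatives, Runx1 and Runx2 stayed higher and Enpp1, Alpl and Ank lower in GOF. The gene count called over the whole table was 877 with limma on log2(FPKM + 1) against 1906, and 1311 to 1961 with each library left out in turn. Genes of the set called lower numbered 0 with limma on log2(FPKM + 1), 1 with the replicate block by label number and 0 to 2 with a library left out. Those past the adjusted p alone and higher numbered 1 with upper quartile, with limma on log2(FPKM + 1) or log2(FPKM + 0.1) and with the replicate block by animal, and 0 with the block by label number, with 0 to 2 over the libraries left out. Those lower numbered 1 with the block by label number, 3 with the block by animal (Spp1 added) and 0 to 2 over the libraries left out. The label numbers do not pair the samples, so a call lost with that block is not read as a weaker effect. Osteoblast regulators called numbered 3 with the block by animal and 3 to 6 with a library left out, and the Runx partners and corepressors 0 with log2(FPKM + 1), 1 with log2(FPKM + 0.1) and 2 to 3 with a library left out. Bone matrix genes called numbered 2 to 3 with a library left out. Mineral and phosphate regulators called, 6 in the report, numbered 4 to 6 with a library left out and 5 to 8 over the other alternatives, 8 with the block by animal. The GOF minus control difference in the Runx1 share, 1.05 percentage points, was -0.0917 on CPM and -1.14 to 2.67 with a library left out. The Alpl over Enpp1 difference was 0.006 with a pseudocount of 1 and -1.72 to -0.90 with a library left out, and that of Alpl over Ank, -2.34 in the report, was -0.56 with a pseudocount of 1 and -2.93 to -2.02 with a library left out.

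The Spp1 log2 fold change turned to -0.18 and -0.19 with limma on log2(FPKM + 1) and log2(FPKM + 0.1), to -0.15 with the replicate block by label number, to -0.84 with that by animal, to -0.44 with limma-voom and the animal as a correlation, to -0.002 without Control replicate 0 and to -0.62 without GOF replicate 1, the libraries left out giving up to 0.60. Otulin turned to 0.009 and 0.01 with the limma fits, 0.125 without Control replicate 0 and 0.038 without GOF replicate 0 (from -0.12 over the libraries left out), and Ctnnb1 to 0.023 without GOF replicate 0 (from -0.16). Over the 39 genes to which alternatives were applied, which leave out the marker genes of other cell types, 519 values kept direction and side of the threshold, 36 lost the threshold, 9 passed it and 12 changed sign. The cause was not tested. Runx3, Sp7, Ibsp and Phex were limited by depth, at no more than 12 fragments per library.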

Other observations

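Marker lists of skeletal and other cells that were not part of the comparisons gave the following values. Over all genes tested, 6.69% were called higher and 5.64% lower in GOF. Of 10 chondrocyte markers 4 were tested: Matn3 (matrilin 3) and Hapln1, a link protein of cartilage matrix, were called higher, from 0.378 to 1.07 FPKM and from 0.0290 to 0.122 FPKM, and Col11a2 lower, from 0.729 to 0.323 FPKM (edgeR, adjusted p = 0.0208, 0.0328 and 0.0397). Hapln1, with 21 fragments over the controls and 91 over the GOF libraries, passed the filter on low counts through the GOF libraries alone. The cartilage genes Acan and Col2a1 had at most 7 fragments over a group, and the summed level of the list was 1.51 to 1.87 FPKM in control and 1.65 to 1.96 FPKM in GOF libraries. Of 7 osteoclast markers 4 were tested, and the receptor Oscar was called higher, with 14 fragments over the controls and 80 over the GOF libraries (log2 fold change 2.43, adjusted p = 0.0147 from edgeR), having passed the filter through the GOF libraries alone. Ctsk, the collagen-cleaving cathepsin K, was at 199 and 231 FPKM (log2 fold change 0.20, adjusted p = 0.623 from edgeR), Dcstamp was at 0 in all libraries, and the summed level was 187 to 213 FPKM in control and 149 to 314 FPKM in GOF libraries.

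Summed keratinocyte markers were 0.469 to 0.553 FPKM in control and 2.88 to 6.72 FPKM in GOF, with Dsp alone called, Krt14 at 2 fragments in all and Krt5 at 10. Skeletal muscle markers were 22.7 to 26.8 and 137 to 171 FPKM, with Acta1 alone tested and called, and Ckm at 2 fragments per group. Adipocyte markers were 7.18 to 8.95 and 1.80 to 3.17 FPKM, with Fabp4 alone tested and called lower. Dermal papilla markers were 52.0 to 64.2 and 25.2 to 47.9 FPKM, with Vcan called lower and Lef1 and Prom1 higher, both of which passed the filter through the GOF libraries alone. Endothelial markers were 4.32 to 4.47 and 2.68 to 6.54 FPKM, with Kdr called higher and Tek lower, and those of melanocytes and Schwann cells 1.2 to 4.56 and 1.145 to 3.99 FPKM, with none of 3 tested called (edgeR). The 3 tested sex genes were not called, and Eif2s3y was at 0 in all libraries. Of the dermal fibroblast markers Col1a2 and Dcn were called lower (log2 fold changes -1.18 and -1.67, adjusted p = 0.0375 and 0.00584 from edgeR). No part of these levels in the results above was tested.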
